A study of Mus musculus with 12 samples.

Results

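The 9 genes of the canonical TGF-β pathway described here were taken by symbol from a table of 35275 mouse genes. They are the ligands Tgfb1, Tgfb2 and Tgfb3, the receptors Tgfbr1, Tgfbr2 and Tgfbr3, and the signal-transducing Smad2, Smad3 and Smad4. All 9 were found, and all 9 were among the 15150 genes with enough counts to be tested. They were measured by RNA-Seq in 12 libraries of cultured cardiac fibroblasts, in 4 conditions with 3 libraries each. The cells came from hearts of Smad7 fl/fl mice on a C57BL/6 background at 12 weeks of age and were used at passage 2. By this account both control and Smad7-KO cells carry the floxed Smad7 allele, in which the promoter region and the first exon lie between the loxP sites. The sample titles, however, name the control cells wild type. Smad7-KO cells were infected with an adenovirus that expresses Cre recombinase, and control cells with a control adenovirus, described as empty in the paper and as GFP-expressing in the sample labels. Infection was at a multiplicity of 100 for 48 hours. The difference in virus, Cre included, goes together with Smad7 deletion in these samples, so their effects cannot be told apart. Smad7 loss names this contrast below. Unstimulated control and unstimulated Smad7-KO cells received no TGF-β1. The TGF-β1 control and TGF-β1 Smad7-KO cells received 10 ng/ml of TGF-β1, for 2 hours by one label field and for 4 hours by another. The replicates are called independent samples, and whether they came from separate cultures or mice is not given in the sources used here, so p values measure the spread between these libraries only. The titles of TGF-β1 control libraries 2 and 3 carry sample number 1 beside codes that end in 2 and 3, and the codes were taken as the replicate numbers, so that n = 3 in that condition rests on the codes. Cre was delivered by virus to a whole culture, so uninfected cells and other cell types in the dish are part of each library.

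TGF-β1, TGF-β2 and TGF-β3 are secreted in latent complexes and, once activated, bind the type II receptor TβRII, which recruits and phosphorylates the type I receptor TβRI (ALK5, encoded by Tgfbr1). TβRI phosphorylates Smad2 and Smad3, which join Smad4 and move to the nucleus to regulate transcription. The type III receptor betaglycan, encoded by Tgfbr3, presents ligand, TGF-β2 above all, to TβRII. Smad7 is an inhibitory Smad that is induced by TGF-β and binds the activated type I receptor. In the heart this pathway drives fibroblasts to become matrix-producing myofibroblasts after injury.

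Smad7 itself was read first, as the check of the deletion. Its level in CPM (counts scaled to library size by TMM) was 71.4 to 77.2 in unstimulated control and 28.4 to 31.1 in unstimulated Smad7-KO libraries, and 142 to 150 in TGF-β1 control and 70.0 to 80.8 in TGF-β1 Smad7-KO libraries. Smad7 was thus lower in every Smad7-KO library than in the control libraries of the same stimulation, and reads remained. TGF-β1 still raised it 2.61-fold in Smad7-KO cells (log2 fold change 1.39, adjusted p = 3.19e-06), to a range that overlaps unstimulated control, so the genotypes compare lower with higher Smad7 transcript. Library totals ran from 19056916 to 25371321 counts. Unstimulated control library 2 stood apart from the others. Its log2 difference between long and short genes, relative to the mean of all libraries, was -1.09, against -0.41 to 0.374 in the other 11. Replicates spread most among unstimulated control libraries, with a biological coefficient of variation (spread in excess of counting noise) of 0.334, against 0.0529 to 0.137 in the other conditions. For this reason each call of a member is also given without that library and in a length-adjusted fit, in which the trend of each library on gene length was removed. For other genes these fits are given where they ended a call or moved the log2 fold change by over 1.5 times. A gene was called where the quasi-likelihood p of edgeR, adjusted by Benjamini-Hochberg over all 15150 genes, did not exceed 0.05, and positive log2 fold changes are higher in Smad7-KO or in TGF-β1-stimulated cells.

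The cultures held transcripts of several cell types. The 8 fibroblast markers listed for this check summed to 3450 to 5320 CPM in unstimulated control, 4830 to 5410 in TGF-β1 control, 4480 to 4690 in unstimulated Smad7-KO and 4520 to 4740 in TGF-β1 Smad7-KO libraries. With Smad7 loss 4 of these 8 were called in each stimulation, Thy1 and Tcf21 lower and Dcn and Lum higher. Thy1 averaged 109 CPM in unstimulated control and 37.2 in unstimulated Smad7-KO libraries, and Tcf21 138 and 56.2. The 7 macrophage markers in the table summed to 14400 to 23000, 14200 to 16500, 20500 to 22600 and 19700 to 22300 CPM in the same order, and 4 of these 7 were called higher in Smad7-KO cells in each stimulation. The 8 endothelial markers summed to 261 to 320, 267 to 312, 23.0 to 24.7 and 19.7 to 22.2 CPM, and 6 of the 8 were called lower in Smad7-KO cells in each stimulation. The 5 mesothelial markers summed to 252 to 286, 239 to 262, 150 to 177 and 145 to 160 CPM, with 4 called lower with Smad7 loss in unstimulated and 2 in stimulated cells. The 6 cardiomyocyte markers summed to 34 to 77.8, 28.5 to 33.3, 18.4 to 24.6 and 18.5 to 21.1 CPM, with Tnnt2 and Tnni3 called lower in unstimulated cells. The 6 smooth muscle and pericyte markers summed to 12.1 to 17.0, 17.3 to 21.7, 5.15 to 8.24 and 8.54 to 11.7 CPM, with Cspg4 called lower in each stimulation and Des in unstimulated cells. Of all tested genes, 12.1% were called higher and 13.7% lower with Smad7 loss in unstimulated cells, and 5.72% and 7.23% in stimulated cells. No listed marker was at 0 in every library of a condition. Fewer cells of a type and less RNA per cell cannot be told apart in such bulk samples. The part of these markers in the differences below was not tested. More of them were called with Smad7 loss than with TGF-β1. Over all the lists, TGF-β1 calls were limited to Tek and Cspg4, each in control and in Smad7-KO cells. Tek was lower. Cspg4 was higher, on average from 3.75 to 9.34 CPM in control and from 1.08 to 3.18 CPM in Smad7-KO cells.

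TGF-β1 stimulation raised Tgfbr1 about 2-fold in cells of either genotype, and no other member was called for it in the fit of all libraries. On only the libraries compared, edgeR and DESeq2 called 0 and 1 members in control cells (391 and 858 of all genes). In Smad7-KO cells each of these fits called 5 members (3792 and 3419 of all genes). Smad7 loss lowered Tgfb2 in unstimulated and in stimulated cells. In unstimulated cells Smad7 loss also lowered Tgfb3 and raised Tgfbr1, and in stimulated cells it raised Tgfb1. By comparison, Smad7 loss in unstimulated cells gave 1 member higher and 2 lower of 9, where 12.1% of all tested genes were called higher and 13.7% lower. In TGF-β1-stimulated cells it gave 1 higher and 1 lower, against 5.72% and 7.23% of all tested genes. TGF-β1 gave 1 higher and 0 lower in control cells, against 5.04% and 3.33% of all tested genes. In Smad7-KO cells it also gave 1 higher and 0 lower, against 5.33% and 4.9%. The 0 members called lower by edgeR after TGF-β1 compare with 0 by DESeq2 on all libraries in control cells. In Smad7-KO cells DESeq2 on all libraries called Smad3 lower. At an unadjusted p under 0.05 edgeR gave 3 members of either direction in control and 4 in Smad7-KO cells. At that threshold it gave 3073 and 3064 of all 15150 tested genes. The median log2 fold change of the 9 members was 0.20 and 0.09 for Smad7 loss without and with TGF-β1, beside -0.02 and -0.02 for all tested genes, and -0.20 and -0.14 for TGF-β1 in control and in Smad7-KO cells, beside -0.03 and -0.01. The plots of CPM by library and of log2 fold changes show these values.

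**Figure D1:**
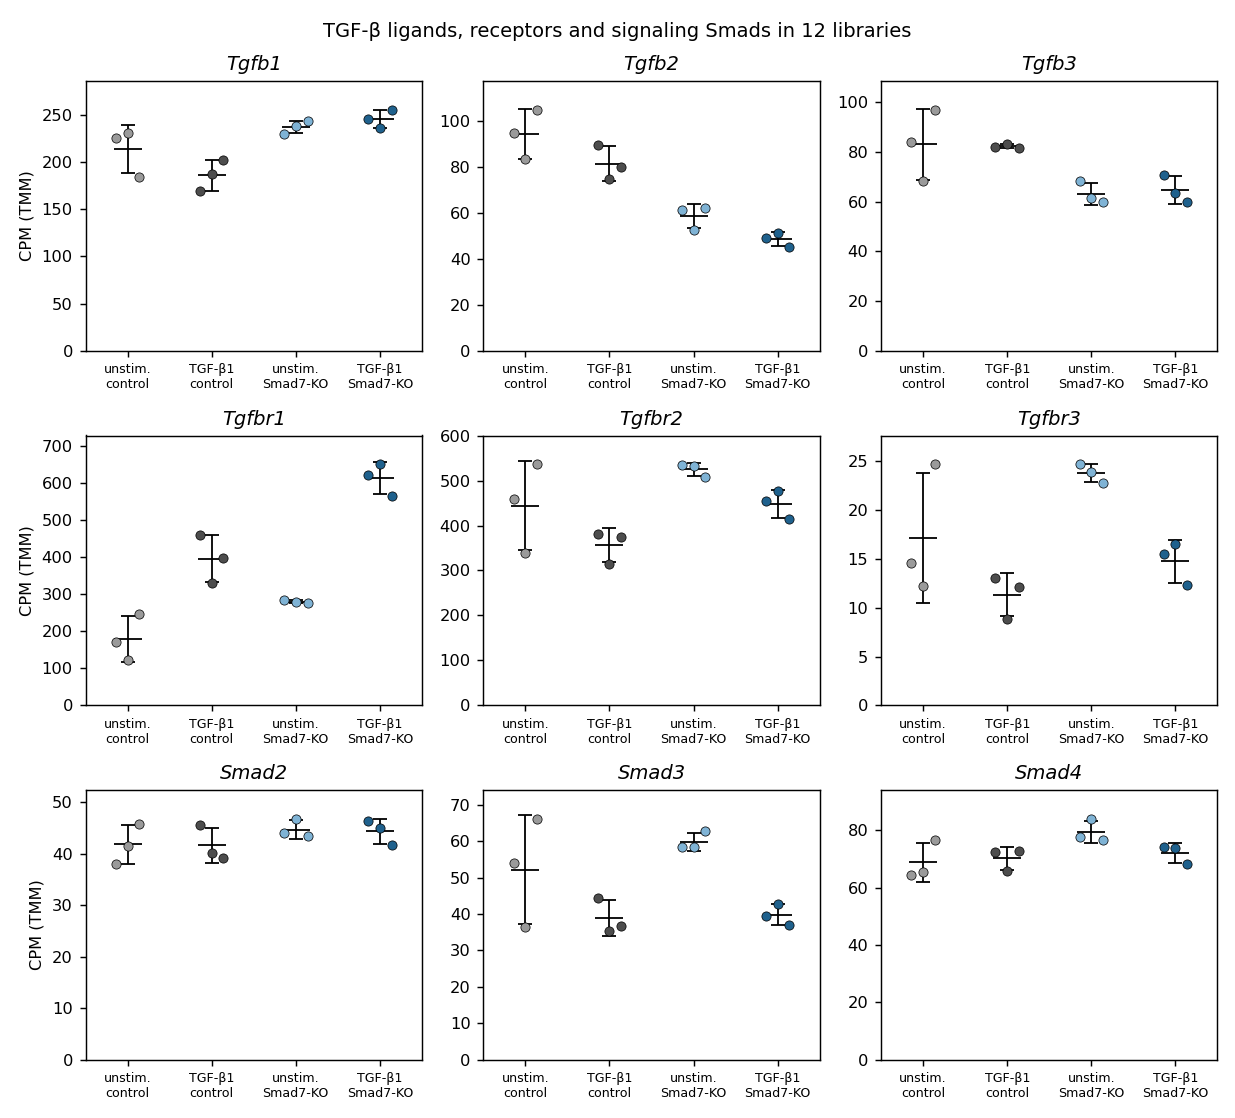
Level of each of the 9 genes in CPM (counts scaled to library size by TMM, linear axis from 0) in the 3 libraries of each condition, with each point a library and the bar and whiskers the mean and SD. Tgfbr1 rises with TGF-β1 in control (122 to 246 against 331 to 460 CPM) and in Smad7-KO cells (275 to 284 against 566 to 650 CPM), and Tgfb2 is lower in all 6 Smad7-KO libraries (45.4 to 62.2 CPM) than in all 6 control libraries (75.1 to 105 CPM).

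**Figure D2:**
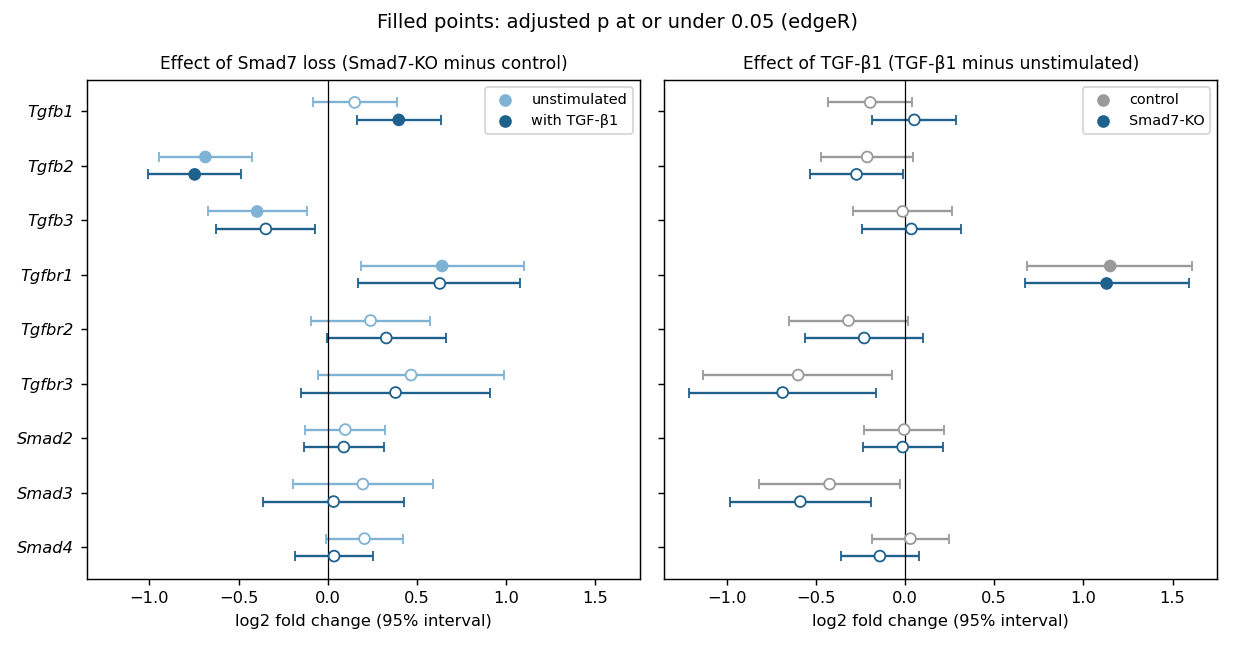
Log2 fold changes of the 9 genes with 95% intervals from edgeR, for Smad7 loss (left, unstimulated and with TGF-β1) and for TGF-β1 (right, in control and in Smad7-KO cells), with filled points for an adjusted p of 0.05 or less. Tgfb2 lies left of 0 for Smad7 loss in both stimulations, and Tgfbr1 lies at 1.15 and 1.13 for TGF-β1.

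Tgfb1 (ENSMUSG00000002603), which encodes the most studied isoform, lies on chromosome 7 of GRCm38 from 25687002 to 25705077 on the plus strand. It was at 225, 231 and 184 CPM in unstimulated control, at 169, 187 and 202 in TGF-β1 control, at 230, 238 and 243 in unstimulated Smad7-KO and at 245, 236 and 255 in TGF-β1 Smad7-KO libraries. The stimulated Smad7-KO libraries were all above the stimulated control libraries, whereas the unstimulated conditions overlapped. In stimulated cells Tgfb1 rose with Smad7 loss by 0.40 on the log2 scale (SE 0.108, adjusted p = 0.0314), 1.32-fold. This call was lost in 8 of 12 fits that each left out 1 library, and held without TGF-β1 control library 3 or without any single unstimulated control library. Without unstimulated control library 2 the log2 fold change was 0.42 (adjusted p = 0.00554), and after length adjustment 0.50 (adjusted p = 0.000184). In unstimulated cells the difference was 0.15 (95% interval -0.08 to 0.39, adjusted p = 0.292) and was called only after length adjustment, at 0.32 (adjusted p = 0.00358). TGF-β1 itself left Tgfb1 at a log2 difference of -0.20 (95% interval -0.43 to 0.04, adjusted p = 0.353) in control and 0.05 (95% interval -0.18 to 0.29, adjusted p = 0.906) in Smad7-KO cells. The former was called without unstimulated control library 3 (-0.29, adjusted p = 0.0499) and in no other leave-out. The summed macrophage markers were at 14200 to 16500 CPM in TGF-β1 control and 19700 to 22300 CPM in TGF-β1 Smad7-KO libraries, and their part in the Tgfb1 difference was not tested.

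Tgfb2 (ENSMUSG00000039239) encodes the isoform that binds TβRII poorly without betaglycan, and lies on chromosome 1 from 186623186 to 186705992 on the minus strand. It was at 95, 83.5 and 105 CPM in unstimulated control, at 89.8, 75.1 and 80.0 in TGF-β1 control, at 61.4, 52.6 and 62.2 in unstimulated Smad7-KO and at 49.0, 51.5 and 45.4 in TGF-β1 Smad7-KO libraries. Every Smad7-KO library was thus below every control library. Tgfb2 fell by 0.69 on the log2 scale with Smad7 loss in unstimulated cells (SE 0.119, adjusted p = 0.00287), to 62.1% of control, and by 0.75 in stimulated cells (SE 0.119, adjusted p = 0.00233), to 59.6%. Both calls held in all 12 fits that left out 1 library, with log2 fold changes of -0.77 to -0.60 and -0.79 to -0.67. Without unstimulated control library 2 they were -0.77 (adjusted p = 0.000667) and -0.73 (adjusted p = 0.000373). After length adjustment they were -0.94 (adjusted p = 3.82e-06) and -0.89 (adjusted p = 7.82e-06). With TGF-β1 the log2 differences were -0.21 (95% interval -0.47 to 0.05, adjusted p = 0.357) in control and -0.27 (95% interval -0.53 to -0.01, adjusted p = 0.219) in Smad7-KO cells, and only the latter conditions did not overlap. Both were called after length adjustment, at -0.32 (adjusted p = 0.0117) and -0.27 (adjusted p = 0.0308). The antisense gene Gm29491 shares 124 exonic bases with Tgfb2 and had at most 6 counts in any library.

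Tgfb3 (ENSMUSG00000021253), the third isoform, lies on chromosome 12 from 86056744 to 86079041 on the minus strand. It was at 83.9, 68.3 and 96.8 CPM in unstimulated control, at 82.0, 83.2 and 81.5 in TGF-β1 control, at 68.2, 61.5 and 59.6 in unstimulated Smad7-KO and at 70.8, 63.3 and 59.8 in TGF-β1 Smad7-KO libraries. In CPM, conditions did not overlap in either Smad7 comparison, although unstimulated control library 2, at 68.3, was next to unstimulated Smad7-KO library 1, at 68.2. In FPKM (fragments scaled to gene length and library total) the unstimulated conditions did overlap. They were at 18.5 to 29.8 in control and 17.7 to 20.4 in Smad7-KO libraries. Tgfb3 fell by 0.40 on the log2 scale with Smad7 loss in unstimulated cells (SE 0.127, adjusted p = 0.0424). The call was lost in 11 of the 12 leave-outs and held only without unstimulated control library 2, where the log2 fold change was -0.52 (adjusted p = 0.00465). After length adjustment it was -0.46 (adjusted p = 0.0025). In stimulated cells the difference was -0.35 (95% interval -0.62 to -0.07, adjusted p = 0.0955), which was called without unstimulated control library 2 (-0.33, adjusted p = 0.0209) or 3 (-0.35, adjusted p = 0.0324), and after length adjustment (-0.37, adjusted p = 0.00946). For TGF-β1 the log2 differences of Tgfb3 were -0.01 (95% interval -0.29 to 0.26) in control and 0.04 (95% interval -0.24 to 0.31) in Smad7-KO cells. The genes Gm37804 and Gm48008, which overlap exons of Tgfb3 on the other strand, were not used here.

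The 250 bases upstream of the start sites of Tgfb1 and Tgfb2 are shown because these isoforms moved in opposite directions with Smad7 loss in stimulated cells. Sequences are from RefSeq for GRCm38.p6, which held this window for 5 of the 9 members, and read 5′ to 3′ along the gene's strand. Capitals mark matches to the letters of the GC box GGGCGG, the Smad-binding CAGAC and the AP-1 site TGACTCA, each searched on both strands, and of TATAAA on the gene's strand.
Tgfb1, chr7:25686752-25687001, plus strand: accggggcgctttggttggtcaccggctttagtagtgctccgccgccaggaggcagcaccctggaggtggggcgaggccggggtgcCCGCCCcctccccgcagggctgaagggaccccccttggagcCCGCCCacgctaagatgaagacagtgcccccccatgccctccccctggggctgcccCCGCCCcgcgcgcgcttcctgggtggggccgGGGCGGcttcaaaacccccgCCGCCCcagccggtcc
Tgfb2, chr1:186705990-186706239, minus strand: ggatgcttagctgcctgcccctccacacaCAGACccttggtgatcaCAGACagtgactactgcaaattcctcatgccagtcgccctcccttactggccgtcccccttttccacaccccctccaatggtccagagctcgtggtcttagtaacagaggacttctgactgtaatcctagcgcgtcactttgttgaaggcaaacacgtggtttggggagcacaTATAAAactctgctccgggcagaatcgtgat
The Tgfb1 window held 5 GC boxes and no match to the other letters. The Tgfb2 window held CAGAC at positions -221 and -204 from the start site and TATAAA at -31, with no GC box or TGACTCA. Over 32851 mouse promoter windows of the same length, 42.2% held CAGAC, 4.46% TGACTCA, 32.7% GGGCGG and 7.59% TATAAA. Such matches describe letters only.

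Within a library, the isoforms can be set against each other per length, as a share of the summed FPKM (fragments scaled to gene length and library total) of Tgfb1, Tgfb2 and Tgfb3. Tgfb1 made up 69.7%, 73.7% and 62.5% of it in unstimulated control and 64.3%, 68.0% and 69.4% in TGF-β1 control libraries. In unstimulated Smad7-KO it made up 76.1%, 78.9% and 78.4%, and in TGF-β1 Smad7-KO libraries 78.3%, 78.6% and 81.1%. Every Smad7-KO library was above every control library. Tgfb2 made up 14.1% ± 2.11 (SD, n = 3) without and 13.6% ± 1.79 with TGF-β1 in control cells, and 8.88% ± 0.739 and 7.24% ± 0.62 in Smad7-KO cells, again without overlap between genotypes. Tgfb3 made up 17.3% ± 3.58, 19.1% ± 1.04, 13.3% ± 1.11 and 13.4% ± 1.14 in the same order, with overlap between genotypes in unstimulated cells. The mix of isoform transcripts thus shifted toward Tgfb1 with Smad7 loss, by 9.14 percentage points (SE 3.39) without and 12.1 (SE 1.77) with TGF-β1, and TGF-β1 moved it by -1.4 (SE 3.62) in control and 1.53 (SE 1.24) in Smad7-KO cells, with overlap. These shares were not tested.

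**Figure D3:**
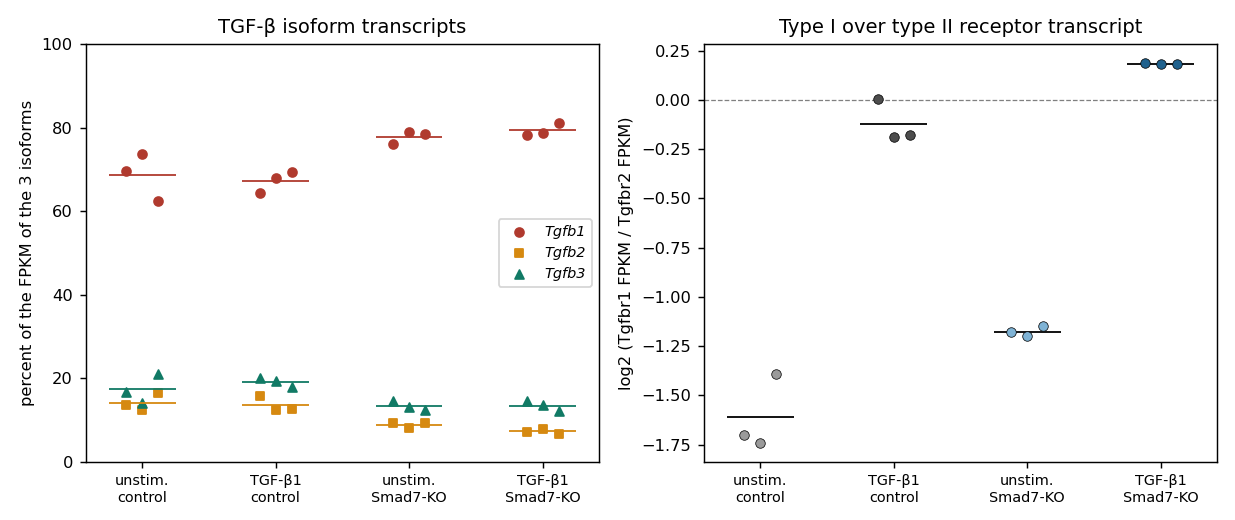
Left, share of each TGF-β isoform in the summed FPKM of the 3 isoforms, in percent, and right, log2 of the ratio of Tgfbr1 to Tgfbr2 FPKM, with each point a library and each line the mean of a condition. The Tgfb1 share is higher in all Smad7-KO libraries (76.1% to 81.1%) than in all control libraries (62.5% to 73.7%), and the receptor ratio rises with TGF-β1 from -1.61 to -0.12 in control and from -1.18 to 0.18 in Smad7-KO cells.

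Tgfbr1 (ENSMUSG00000007613) encodes TβRI, the kinase that phosphorylates Smad2 and Smad3 and that Smad7 binds. It lies on chromosome 4 from 47353222 to 47414931 on the plus strand. It was at 170, 122 and 246 CPM in unstimulated control, at 460, 331 and 397 in TGF-β1 control, at 284, 279 and 275 in unstimulated Smad7-KO and at 622, 650 and 566 in TGF-β1 Smad7-KO libraries. Stimulated and unstimulated libraries did not overlap in either genotype, and at each stimulation the Smad7-KO libraries were above the control libraries. TGF-β1 raised Tgfbr1 2.21-fold in control cells (log2 fold change 1.15, SE 0.211, adjusted p = 0.00482) and 2.19-fold in Smad7-KO cells (1.13, SE 0.21, adjusted p = 0.00447). Both calls held in all 12 leave-outs, at 0.93 to 1.45 and at 1.09 to 1.18. Without unstimulated control library 2, the lowest of all 12, they were 0.93 (adjusted p = 0.00234) and 1.15 (adjusted p = 0.000122), and after length adjustment 1.05 (adjusted p = 9.51e-07) and 1.15 (adjusted p = 3e-07). With edgeR on only the 6 control libraries the value in control cells was 1.14 and was not called (adjusted p = 0.101). The response did not differ detectably between genotypes, with an interaction of -0.01 (95% interval -0.66 to 0.63, adjusted p = 0.996).

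In unstimulated cells Smad7 loss raised Tgfbr1 by 0.64, as log2 (SE 0.209, adjusted p = 0.0445), 1.56-fold. The call was lost in 10 of the 12 leave-outs and held only without unstimulated control library 3 or TGF-β1 control library 2. Without unstimulated control library 2 the log2 fold change was 0.43 (adjusted p = 0.0776), and after length adjustment it was 0.33 (adjusted p = 0.00734). In stimulated cells the difference was 0.63 (95% interval 0.17 to 1.08, adjusted p = 0.0703). It was called without unstimulated control library 2 (0.65, adjusted p = 0.0058) or 3 (0.63, adjusted p = 0.00822) and after length adjustment (0.43, adjusted p = 0.00134). With DESeq2 on all libraries both were called, at 0.65 (adjusted p = 0.016) and 0.66 (adjusted p = 0.0209). The direction was the same in all of these fits, and the size and the call in each stimulation moved with the libraries and the length trend. Of the 7 macrophage markers, 4 were called higher with Smad7 loss in each stimulation, and 0 were called with TGF-β1 in either genotype. Their part in the Tgfbr1 differences was not tested.

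The window upstream of Tgfbr1 is shown as that of the member with the largest response to TGF-β1, with the same capitals as above.
Tgfbr1, chr4:47352972-47353221, plus strand: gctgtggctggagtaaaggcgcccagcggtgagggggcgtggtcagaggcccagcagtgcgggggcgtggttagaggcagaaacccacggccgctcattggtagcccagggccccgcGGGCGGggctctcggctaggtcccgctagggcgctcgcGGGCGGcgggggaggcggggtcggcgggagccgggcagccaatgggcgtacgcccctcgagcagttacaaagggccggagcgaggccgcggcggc
It held 2 GC boxes, at -133 and -95 from the start site, and no match to the other letters. A second RefSeq start of Tgfbr1 further downstream had a CAGAC at -203. Of the other windows, that of Tgfbr2 held CAGAC at -160 and that of Smad3 held 2 GC boxes.

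Tgfbr2 (ENSMUSG00000032440) encodes TβRII, the ligand-binding kinase of the complex, and lies on chromosome 9 from 116087698 to 116175363 on the minus strand. It was at 458, 339 and 536 CPM in unstimulated control, at 382, 314 and 374 in TGF-β1 control, at 534, 533 and 508 in unstimulated Smad7-KO and at 454, 476 and 414 in TGF-β1 Smad7-KO libraries. In stimulated cells the Smad7-KO libraries were all above the controls, and in Smad7-KO cells the stimulated libraries were all below the unstimulated ones. No comparison was called, with log2 differences for Smad7 loss of 0.24 (95% interval -0.09 to 0.57, adjusted p = 0.237) without and 0.33 (95% interval -0.004 to 0.66, adjusted p = 0.178) with TGF-β1. For TGF-β1 they were -0.32 (95% interval -0.65 to 0.02, adjusted p = 0.272) in control and -0.23 (95% interval -0.56 to 0.10, adjusted p = 0.492) in Smad7-KO cells. Without unstimulated control library 2 the difference with Smad7 loss in stimulated cells (0.35, adjusted p = 0.0212) and that with TGF-β1 in control cells (-0.48, adjusted p = 0.0124) were called, and without unstimulated control library 3 that with Smad7 loss in unstimulated cells was (0.40, adjusted p = 0.0282). After length adjustment TGF-β1 lowered Tgfbr2 by 0.41 in control (adjusted p = 0.000703) and by 0.22 in Smad7-KO cells (adjusted p = 0.0328), and Smad7 loss in unstimulated cells left it at -0.003 in place of 0.24.

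The ratio of type I to type II receptor transcripts was higher with TGF-β1. The log2 ratio of Tgfbr1 to Tgfbr2 FPKM was -1.70, -1.74 and -1.39 in unstimulated control, 0.002, -0.19 and -0.18 in TGF-β1 control, -1.18, -1.20 and -1.15 in unstimulated Smad7-KO and 0.187, 0.182 and 0.184 in TGF-β1 Smad7-KO libraries. No condition overlapped another in any of the 4 comparisons. On the linear scale Tgfbr1 went from 0.327 to 0.918 of Tgfbr2 in control and from 0.442 to 1.14 in Smad7-KO cells. TGF-β1 raised this ratio by 1.49 (SE 0.126) in control and 1.36 (SE 0.0131) in Smad7-KO cells on the log2 scale, and Smad7 loss by 0.44 (SE 0.111) without and 0.31 (SE 0.0624) with TGF-β1. The ratio was described, not tested, and unequal change within a library does not show which receptor moved.

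Tgfbr3 (ENSMUSG00000029287), the betaglycan gene, lies on chromosome 5 from 107106570 to 107289629 on the minus strand and had the fewest counts of the 9, 213 to 585 per library. It was at 14.6, 12.2 and 24.7 CPM in unstimulated control, at 13.1, 8.83 and 12.1 in TGF-β1 control, at 24.7, 23.9 and 22.8 in unstimulated Smad7-KO and at 15.5, 16.5 and 12.3 in TGF-β1 Smad7-KO libraries. Unstimulated control library 3 was at the level of the Smad7-KO libraries, and the other 2 unstimulated controls were near the stimulated ones. With TGF-β1 the log2 differences were -0.60 (95% interval -1.13 to -0.07, adjusted p = 0.179) in control and -0.69 (95% interval -1.21 to -0.16, adjusted p = 0.106) in Smad7-KO cells, where conditions did not overlap. Both were called without unstimulated control library 2 (-0.80, adjusted p = 0.0355, and -0.67, adjusted p = 0.0337) and after length adjustment (-0.70, adjusted p = 0.00112, and -0.67, adjusted p = 0.0012). The second was also called without unstimulated control library 3 (-0.69, adjusted p = 0.0119). For Smad7 loss the differences were 0.47 (95% interval -0.05 to 0.99, adjusted p = 0.151) and 0.38 (95% interval -0.15 to 0.91, adjusted p = 0.315), the first called without unstimulated control library 3 (0.83, adjusted p = 0.00312). After length adjustment they were 0.13 and 0.16 and not called. Gm43422, which overlaps Tgfbr3 exons on the same strand, was not used here.

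Smad2 (ENSMUSG00000024563, chromosome 18 from 76241580 to 76305731, plus strand), a receptor-activated Smad, was the steadiest of the 9 in these libraries. It was at 38.1 to 45.8 CPM in unstimulated control, 39.2 to 45.6 in TGF-β1 control, 43.4 to 46.8 in unstimulated Smad7-KO and 41.7 to 46.4 in TGF-β1 Smad7-KO libraries. The conditions overlapped in all 4 comparisons. Its log2 differences were 0.10 and 0.09 for Smad7 loss without and with TGF-β1, and -0.01 and -0.01 for TGF-β1 in control and in Smad7-KO cells, with 95% intervals between -0.24 and 0.32 and adjusted p of 0.473 to 0.985.

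Smad3 (ENSMUSG00000032402, chromosome 9 from 63646767 to 63757994, minus strand) encodes a Smad that binds DNA directly and drives many matrix genes. It was at 54.0, 36.3 and 66.1 CPM in unstimulated control, at 44.5, 35.4 and 36.8 in TGF-β1 control, at 58.4, 58.3 and 62.7 in unstimulated Smad7-KO and at 39.5, 42.8 and 37.1 in TGF-β1 Smad7-KO libraries. In Smad7-KO cells all stimulated libraries were below the unstimulated ones, and in control cells only unstimulated library 2 lay among the stimulated. With TGF-β1 the log2 differences were -0.42 (95% interval -0.82 to -0.03, adjusted p = 0.209) in control and -0.59 (95% interval -0.98 to -0.19, adjusted p = 0.0637) in Smad7-KO cells. Without unstimulated control library 2 they were -0.63 (adjusted p = 0.00471) and -0.58 (adjusted p = 0.00302), and after length adjustment -0.52 (adjusted p = 0.000887) and -0.58 (adjusted p = 0.000293), all called. The second was called as well without unstimulated control library 3 (-0.59, adjusted p = 0.0144) and by DESeq2 on all libraries (-0.58, adjusted p = 0.0305). For Smad7 loss they were 0.20 (95% interval -0.20 to 0.59, adjusted p = 0.409) and 0.03 (95% interval -0.36 to 0.43, adjusted p = 0.921). The first was called without unstimulated control library 3 (0.41, adjusted p = 0.0479), and after length adjustment both turned to the other side of 0, at -0.07 and -0.13, without a call.

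Smad4 (ENSMUSG00000024515, chromosome 18 from 73639009 to 73703780, minus strand) encodes the common partner that TGF-β and BMP Smads share. It was at 64.5, 65.4 and 76.5 CPM in unstimulated control, at 72.4, 65.7 and 72.7 in TGF-β1 control, at 77.7, 84.0 and 76.6 in unstimulated Smad7-KO and at 74.2, 73.9 and 68.1 in TGF-β1 Smad7-KO libraries. The unstimulated Smad7-KO libraries were the highest. Their log2 difference from unstimulated control was 0.21 (95% interval -0.01 to 0.42, adjusted p = 0.131), called only without unstimulated control library 3 (0.29, adjusted p = 0.0235), and 0.14 (adjusted p = 0.182) after length adjustment. The other 3 comparisons gave 0.04, 0.03 and -0.14 with adjusted p of 0.535 to 0.899. Within libraries the ratio of Smad2 to Smad3 FPKM went with TGF-β1 from 1.33 to 1.99 in Smad7-KO cells without overlap, and from 1.47 to 1.91 in control cells with overlap. The ratio of Smad4 to the sum of Smad2 and Smad3 averaged 0.821 to 0.936 by condition. On the log2 scale it ran from -0.36 to 0.04 over the libraries, and TGF-β1 moved it in Smad7-KO cells by 0.09 (SE 0.0343) without overlap.

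**Figure D4:**
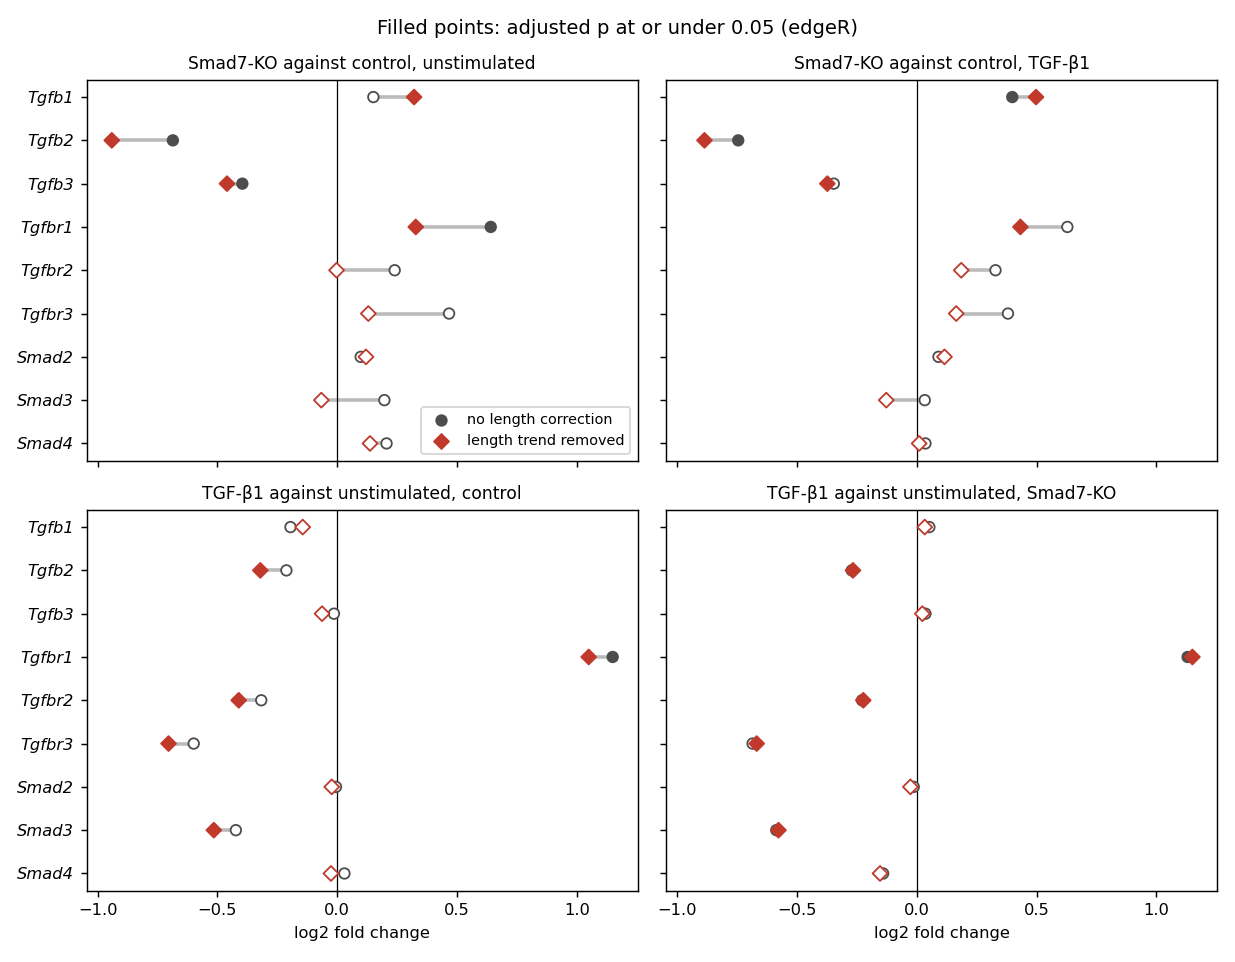
Log2 fold changes of the 9 genes in edgeR without correction (grey circles) and with the trend of each library on gene length removed (red diamonds), in the 4 comparisons, with filled symbols for an adjusted p of 0.05 or less. For Smad7 loss Tgfbr1, Tgfbr2 and Tgfbr3 move toward 0 and Tgfb2 away from it, and for TGF-β1 in Smad7-KO cells the 2 fits nearly coincide.

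The members differ in gene length, and several values moved with it. Tgfb1 is among the shortest 5050 of the 15150 tested genes, Tgfb3, Smad2 and Smad4 among the middle 5050, and Tgfb2, Tgfbr1, Tgfbr2, Tgfbr3 and Smad3 among the longest 5050. For Smad7 loss in unstimulated cells the median log2 fold change was -0.39, -0.01 and 0.29 in these classes, and 13.4%, 45.5% and 79.2% of the called genes were higher. In stimulated cells the medians were -0.20, -0.02 and 0.17, so that Tgfb1 rose and Tgfb2 fell against the direction of their classes. Tgfbr1 rose in unstimulated cells in the direction of its class. For TGF-β1 in Smad7-KO cells the class medians were 0.01, -0.005 and -0.03. With the trend removed, Tgfb1, Tgfb2, Tgfb3 and Tgfbr1 were called for Smad7 loss in both stimulations, 4 of 9, and Tgfb2, Tgfbr1, Tgfbr2, Tgfbr3 and Smad3 for TGF-β1 in both genotypes, 5 of 9. Of those 5, Tgfbr1 rose and the others fell. All tested genes called in these fits numbered 4457 and 3450 for Smad7 loss and 2286 and 2589 for TGF-β1, against 3907, 1962, 1268 and 1550 without correction.

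None of the 9 members was called for the interaction, which asks whether the effect of Smad7 loss differs between stimulated and unstimulated cells, where 0.0198% of all tested genes were called. DESeq2 on all libraries called 0 as well, and at an unadjusted p under 0.05 edgeR gave 0 members. The largest interaction among the members was 0.25 in Tgfb1 (95% interval -0.09 to 0.58) and the lowest -0.17 in Smad4 (95% interval -0.48 to 0.14), both with an adjusted p of 0.98. The comparisons share control samples, so that their values stand side by side and no likeness between them was computed.

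Per length, in FPKM, the members differed far more among themselves than between conditions. In unstimulated control libraries the order was Tgfb1 at 97.1 ± 8.57 (SD, n = 3), Tgfbr2 at 93.2 ± 26.2, Tgfbr1 at 31.3 ± 12.6, Tgfb3 at 24.5 ± 5.68, Smad4 at 20.3 ± 2.98, Tgfb2 at 20.0 ± 3.5, Smad2 at 14.6 ± 1.85, Smad3 at 10.3 ± 3.51 and Tgfbr3 at 2.84 ± 1.24. Only Tgfbr2 from Tgfbr1 and Smad3 from Tgfbr3 were separated without overlap, and the other neighbours overlapped. In TGF-β1 control libraries Tgfbr1, at 69.8 ± 11.7, overlapped Tgfbr2, at 75.6 ± 8.2, which in turn overlapped Tgfb1, at 86.8 ± 7.4. In unstimulated Smad7-KO libraries Tgfbr2, at 111 ± 3.15, and Tgfb1, at 110 ± 3.1, overlapped at the top, with Tgfbr1 apart at 48.9 ± 0.835 and Tgfb2, at 12.5 ± 1.15, down beside Smad3, at 11.9 ± 0.488. In TGF-β1 Smad7-KO libraries Tgfb1, at 111 ± 4.41, Tgfbr1, at 105 ± 7.2, and Tgfbr2, at 92.1 ± 6.36, each overlapped the next. Tgfbr3 was lowest in all 4 conditions, at 1.89 to 3.94 on average.

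Genes that make, activate or present TGF-β were read from lists of the pathway. Of 19 genes of latency and activation, 3 were called higher and 5 lower with Smad7 loss in unstimulated cells, 2 and 4 in stimulated cells, and with TGF-β1 4 and 1 in control and 3 and 1 in Smad7-KO cells. Their median log2 fold change with TGF-β1 was 0.34 in control and 0.24 in Smad7-KO cells, beside -0.03 and -0.01 for all tested genes. With Smad7 loss it was 0.03 without and -0.03 with TGF-β1, beside -0.02 and -0.02. Counts in this and the following lists stand beside the shares of all tested genes. With Smad7 loss 12.1% were called higher and 13.7% lower in unstimulated cells, and 5.72% and 7.23% in stimulated cells. With TGF-β1 these were 5.04% and 3.33% in control, and 5.33% and 4.9% in Smad7-KO cells. Nrros, whose protein anchors latent TGF-β1 on myeloid cells, fell from 124 ± 7.42 to 48.8 ± 3.17 CPM (SD, n = 3) in control (log2 fold change -1.35, adjusted p = 4.74e-06) and from 165 ± 8.12 to 68.8 ± 2.4 in Smad7-KO cells (-1.26, adjusted p = 6.13e-06). The summed macrophage markers went with TGF-β1 from 14400 to 23000 to 14200 to 16500 CPM in control and from 20500 to 22600 to 19700 to 22300 CPM in Smad7-KO cells, and none of the 7 was called. Itgb5, a subunit of an integrin that can activate latent TGF-β, rose from 720 ± 49.4 to 1370 ± 59.8 CPM in control (0.93, adjusted p = 8.98e-05) and from 641 ± 16.5 to 1510 ± 72.9 in Smad7-KO cells (1.24, adjusted p = 9.61e-06). Furin, the protease that cuts the TGF-β precursor, rose by 1.07 (adjusted p = 0.00646) in control and by 0.89 (adjusted p = 0.0163) in Smad7-KO cells, where the call was lost without any single unstimulated Smad7-KO library or without TGF-β1 Smad7-KO library 1 or 2. With Smad7 loss in stimulated cells Ltbp1, a latent TGF-β binding protein of the matrix, fell by 0.97 (adjusted p = 0.00117), and the gelatinase gene Mmp2 fell by 0.67 (adjusted p = 0.00164) without and 0.77 (adjusted p = 0.000882) with TGF-β1. The integrin gene Itgb3 rose by 0.87 in unstimulated Smad7-KO cells (adjusted p = 0.00151), and by 0.49 after length adjustment (adjusted p = 0.0277). The call of Itgb6 (-1.65, unstimulated) held only without unstimulated control library 3 or TGF-β1 Smad7-KO library 1. That of Itga8 (-1.09, stimulated) was lost without TGF-β1 control library 1 or 3 or any TGF-β1 Smad7-KO library.

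Among 7 co-receptors tested of 10 listed, 2 were called higher and 2 lower with Smad7 loss in unstimulated cells, 2 and 1 in stimulated cells, 0 and 2 with TGF-β1 in control and 1 and 1 in Smad7-KO cells. Eng, whose protein endoglin is abundant on endothelium, fell from 329 ± 16.1 to 168 ± 5.79 CPM with Smad7 loss (-0.97, adjusted p = 2.91e-05) and from 355 ± 2.55 to 194 ± 3.15 with TGF-β1 present (-0.87, adjusted p = 7.72e-05). The summed endothelial markers went with it, from 261 to 320 down to 23.0 to 24.7 CPM, and their part was not tested. The neuropilins Nrp1 and Nrp2, which also bind TGF-β, were higher with Smad7 loss, Nrp2 by 1.04 in unstimulated cells (adjusted p = 0.0107), or 0.67 after length adjustment, and Nrp1 by 0.57 in stimulated cells (adjusted p = 0.00651), the latter 0.36 and not called after length adjustment. With TGF-β1 Nrp1 fell by 0.65 in control (adjusted p = 0.00291) and by 0.72 in Smad7-KO cells (adjusted p = 0.00112). Bambi, a kinase-less pseudoreceptor, fell by 1.17 with Smad7 loss in unstimulated cells (adjusted p = 0.00864). Its rise of 1.05 with TGF-β1 in Smad7-KO cells was lost after length adjustment (adjusted p = 0.051), without unstimulated Smad7-KO library 1 or 2 and without TGF-β1 Smad7-KO library 1 or 3. The call of Nrp2 in stimulated cells (0.82) held only without unstimulated control library 2 or 3, and that of Rgma with TGF-β1 in control cells (-0.71) only without unstimulated control library 2.

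Of 8 tested type I and type II receptors of activins and BMPs, 1 was called higher and 1 lower with Smad7 loss in unstimulated cells, 0 and 1 in stimulated cells, and 2 and 0 with TGF-β1 in each genotype. Acvr1, encoding the type I receptor ALK2, rose with TGF-β1 from 38.2 ± 8.06 to 70.3 ± 1.51 CPM in control (0.88, adjusted p = 0.0012) and from 32.5 ± 0.888 to 57.7 ± 1.9 in Smad7-KO cells (0.83, adjusted p = 0.00151). Bmpr2 was called higher by 0.75 in both, in control cells only without unstimulated control library 3 or TGF-β1 control library 2 among the leave-outs. In Smad7-KO cells it was lost without TGF-β1 control library 3, any unstimulated Smad7-KO library or TGF-β1 Smad7-KO library 1 or 2. Acvrl1, encoding the endothelial type I receptor ALK1, fell by 0.47 with Smad7 loss in unstimulated cells (adjusted p = 0.00457), whereas its call in stimulated cells (-0.30) held only without unstimulated control library 2 or 3. That of Acvr2b (0.72, unstimulated) held only without unstimulated control library 3 or TGF-β1 control library 2. Of the BMP Smads, Smad1 and Smad5 were not called in any comparison, and Smad9 fell by 1.41 with Smad7 loss without TGF-β1 (adjusted p = 0.00276) and fell by 1.11 with it (adjusted p = 0.013), the latter not without TGF-β1 Smad7-KO library 1. The part of the endothelial markers in the falls of Acvrl1 and Smad9 was not tested.

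Of 13 inhibitors and feedback genes, which include Smad7, 6 were called higher with TGF-β1 and 0 lower in control cells, and 6 and 1 in Smad7-KO cells, with medians of 0.65 and 0.64. Pmepa1, whose protein keeps Smad2 and Smad3 from the receptor, rose from 145 ± 11.4 to 651 ± 21.6 CPM in control (2.16, adjusted p = 5.33e-07) and from 94.9 ± 5.2 to 558 ± 28.6 in Smad7-KO cells (2.56, adjusted p = 6.72e-08). The Smad co-repressor genes Skil and Ski rose in control cells by 1.65 (adjusted p = 9.47e-05) and 1.07 (adjusted p = 0.00286), and Skil by 1.75 in Smad7-KO cells (adjusted p = 4.91e-05). With Smad7 loss 2 were called higher and 3 lower in unstimulated cells, and 1 and 2 in stimulated cells. Smad6, the other inhibitory Smad, fell from 129 ± 23.2 to 30.6 ± 1.22 CPM (-2.08, adjusted p = 6.9e-06) and with TGF-β1 from 173 ± 14.6 to 71.1 ± 5.48 (-1.28, adjusted p = 0.000185). The summed endothelial markers were lower in the same comparisons. They were at 261 to 320 against 23.0 to 24.7 CPM without TGF-β1, and at 267 to 312 against 19.7 to 22.2 CPM with it. Their part in the fall of Smad6 was not tested. Wwp1, a ubiquitin ligase gene, rose by 0.92 in unstimulated Smad7-KO cells (adjusted p = 0.0131), or 0.55 after length adjustment, and the call of Dcn, the gene of the TGF-β-binding proteoglycan decorin (0.36, stimulated), was lost without any single stimulated library.

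Of 20 tested Smad partners and turnover genes, 0 were called higher and 1 lower with TGF-β1 in each genotype. This was Dab2, an endocytic adaptor of TGF-β receptors, which fell from 692 ± 177 to 259 ± 27.0 CPM in control (-1.42, adjusted p = 0.000327) and from 844 ± 51.6 to 370 ± 48.3 in Smad7-KO cells (-1.19, adjusted p = 0.000891). With Smad7 loss 3 were higher and 4 lower in unstimulated cells, and 0 of either direction in stimulated cells. In the leave-outs the unstimulated calls of Ep300 (1.07) and Crebbp (0.70) held only without unstimulated control library 3 or TGF-β1 control library 2, and for Ep300 also TGF-β1 control library 1, and that of Stub1 (-0.78) was lost without any single unstimulated Smad7-KO library. After length adjustment Crebbp was at 0.145 (adjusted p = 0.186) and not called, Ep300 at 0.64 and Stub1 at -0.43, as Stub1 also was without unstimulated control library 2. Of 26 TGF-β targets, 8 were called higher and 2 lower with TGF-β1 in control and 10 and 1 in Smad7-KO cells, with medians of 0.27 and 0.39. Tgfbi rose by 2.08 (adjusted p = 5.33e-07) and Ltbp2 by 2.09 (adjusted p = 0.000924) in control, and Ltbp2 by 2.39 (adjusted p = 0.000369) and Ctgf by 2.27 (adjusted p = 3.54e-05) in Smad7-KO cells. Il11, a cytokine gene at 0.134 to 0.743 CPM in unstimulated control, rose by 2.64 (adjusted p = 0.00314) in control and by 2.56 (adjusted p = 0.00419) in Smad7-KO cells. With Smad7 loss 1 target was called higher and 13 lower in unstimulated cells (median -0.48) and 1 and 6 in stimulated cells (median -0.36). Id1 fell by 3.07 (adjusted p = 0.000314), Id3 by 2.39 (adjusted p = 0.000355) and Ctgf by 1.51 (adjusted p = 0.000767) in unstimulated cells, and Ctgf by 1.04 in stimulated cells (adjusted p = 0.00691). Id1 and Id3 encode inhibitors of differentiation that BMPs induce, and the part of the endothelial markers in their falls was not tested. With TGF-β1 in control cells Id3 was called lower, at 102 ± 17.7 against 241 ± 114 CPM. Id1, at 48.2 ± 11.6 against 92.4 ± 53.6 CPM, was not called there. In Smad7-KO cells neither was called with TGF-β1. The calls of Id3 (-1.04) and of the cell cycle inhibitor gene Cdkn2b (-0.80) in stimulated cells were lost without TGF-β1 control library 2 or 3 or any TGF-β1 Smad7-KO library.

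As a description, the genes whose log2 CPM followed each member most closely over the 12 libraries were taken from the 12180 genes whose log2 CPM averaged 1 or more. For Tgfbr1 they were Slc7a8 and Inpp5d, each with a Pearson's r of 0.996. For Tgfb1 they were Ctsa (0.972) and Milr1 (0.955), for Tgfb2 Ghr (0.982) and Glt8d2 (0.978), and for Tgfb3 Ptprk (0.969) and Tmem64 (0.966). For Tgfbr2 they were Dennd1a and Epb4.1 (0.974 each), for Tgfbr3 Nr3c1 (0.986) and Oxsr1 (0.985), for Smad3 St3gal1 (0.985) and Ahnak (0.98), for Smad4 Tbc1d23 (0.958) and Ccdc50 (0.922), and for Smad2 Mkln1 (0.912) and Gm14305 (0.904). Among the members themselves Tgfbr2 and Tgfbr3 were at 0.945, Tgfbr3 and Smad3 at 0.9, Tgfbr2 and Smad3 at 0.852, Tgfb2 and Tgfb3 at 0.836, Tgfbr3 and Smad4 at 0.809, Smad2 and Smad4 at 0.758 and Tgfbr2 and Smad4 at 0.742. Tgfb1 was at -0.823 with Tgfb3 and at -0.752 with Tgfb2. Each library holds transcripts of several cell types, macrophage markers included, and their part in these correlations was not tested. The 12 points share their conditions and the length trend of the libraries, with Tgfbr2, Tgfbr3 and Smad3 in the longest class and Smad2 and Smad4 in the middle class.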

How the data were processed

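RNA-Seq of poly(A) RNA was performed in 12 libraries of cultured mouse cardiac fibroblasts, 3 per condition. For each of 35275 genes the authors deposited a raw read count and an FPKM value. The FPKM matched the count scaled by length and total counts in every gene (relative tolerance 0.001). The submitters' processing notes name CASAVA, TopHat2 2.0, Cufflinks 2.1.1, HTSeq 0.6.1, mm10 and GRCm38.p6, and the strand setting is not given in the sources used here, so reads of overlapping genes cannot be assigned with certainty. GENCODE M21 held 34490 of the identifiers.

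Counts were fitted with edgeR 4.0.16 in R 4.3.3 (filterByExpr with a minimum count of 10, TMM, robust quasi-likelihood, all 12 libraries), and genes were called at an adjusted p of 0.05 or less. Ratios within a library used FPKM. Alternatives were DESeq2 1.42.0, edgeR or DESeq2 on only the libraries of a comparison, DESeq2 size factors, all genes unfiltered, log2 FPKM in limma 3.58.1 with a pseudocount of 1 or 0.1, counts or TPM in place of FPKM, the replicate number as a block, offsets from a loess of each library on gene length (span 0.3), and leaving out each library. The edgeR fit and its length adjustment were each tested on simulated counts with known changes, the latter with a trend on gene length put into each library. Depth was 19056916 to 25371321 counts per library, and precision is limited by 3 libraries per condition.

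Groups were taken from the sample labels. The members, lists and alternatives were chosen with earlier results of these data known. Named genes are the 9 members, Smad7, for each pathway list and comparison up to 3 called genes with the largest change whose conditions do not overlap, and the 2 genes most correlated with each member. Of the deposited per-sample columns, 0 were without a sample. The same-numbered replicates of different conditions were checked for pairing by correlating their deviations from the condition means, and 1 of 18 pairs had a correlation over 0.1 (range -0.357 to 0.524), so the numbers were not taken to pair samples.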

Additional observations from a re-analysis of the deposited data

How the results depend on the processing

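Each of the 9 members was recomputed under 10 alternatives and with each of the 12 libraries left out. Tgfb2 with Smad7 loss and Tgfbr1 with TGF-β1 in Smad7-KO cells kept their direction and call in all of these fits, and Tgfbr1 with TGF-β1 in control cells in all but edgeR on only the control libraries. With Smad7 loss in unstimulated cells 3 members were called, against 1 with edgeR or DESeq2 on only the libraries compared and 1 to 6 in the leave-outs, the most without unstimulated control replicate 3, where 7979 of all 15150 genes were called (1535 to 7979 over the leave-outs). With Smad7 loss in stimulated cells 2 were called, against 5 with either tool on only the libraries compared, 1 with no filter on low counts, 4 with the length trend removed with or without the block, and 1 to 5 in the leave-outs, the most without unstimulated control replicate 2, where 4465 of all genes were called (883 to 4465 over the leave-outs). With TGF-β1 in control cells 1 was called, against 0 with edgeR on only the libraries compared, 5 with the length trend removed with or without the block, and 1 to 4 in the leave-outs, where 825 to 3449 of all genes were called. With TGF-β1 in Smad7-KO cells 1 was called, against 2 with DESeq2 on all libraries, 5 with either tool on only the libraries compared, 5 with the length trend removed, 3 with it and the block, and 1 to 3 in the leave-outs, where 985 to 2535 of all genes were called. DESeq2 on all libraries called 5154, 2787, 1727 and 1949 of all genes in these 4 comparisons. For the interaction 0 members were called in every fit run, and fits on only some libraries were not run for it.

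With the replicate number as a block, 2, 1, 1 and 1 members were called in the 4 comparisons and 0 for the interaction. Tgfb3 in unstimulated and Tgfb1 in stimulated cells lost their calls. All genes called with the block numbered 3222, 1625, 1107 and 1323, and 0 for the interaction. With no filter on low counts 1500 of all genes were called for Smad7 loss in stimulated cells. With the length trend removed and the block, 3231 were called for Smad7 loss in stimulated cells. The same fit called 2055 for TGF-β1 in control and 2374 in Smad7-KO cells. The check of pairing did not tie same-numbered samples together. It cannot exclude a shared culture or batch, since the deviations it used also carry the length trend of each library. All genes called by edgeR on only the libraries compared numbered 660, 4453, 391 and 3792, and by DESeq2 2282, 4623, 858 and 3419, against 3907, 1962, 1268 and 1550 in the fit of all libraries. For the interaction, 14 genes were called by DESeq2 and 13 with the length trend removed, against 3.

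Some differences that were not called in the fit of all libraries turned sign. Among them, Tgfbr2 and Smad3 with Smad7 loss in unstimulated cells were at 0.24 and 0.20 in that fit and called at 0.40 and 0.41 without unstimulated control replicate 3. For Tgfb3 with TGF-β1 they were 0.0288 and 0.0309 in control and -0.0022 and -0.00236 in Smad7-KO cells in limma with pseudocounts of 1 and 0.1, with leave-outs from -0.137 to 0.115 and from -0.0342 to 0.0945. For Smad2 with TGF-β1 they were 0.00869 without a filter and 0.0234 and 0.025 in limma in control cells, with leave-outs from -0.0742 to 0.0684, and in Smad7-KO cells from -0.0469 to 0.0275. For Smad3 with Smad7 loss they were -0.0661 and, with the block, -0.0639 in unstimulated cells and -0.128 and -0.128 in stimulated cells with the length trend removed, and -0.00479 and -0.00481 in limma, with leave-outs from -0.00161 to 0.406 and from -0.0201 to 0.141. For Smad4 they were -0.00633 and -0.00657 in limma with Smad7 loss in stimulated cells, and -0.0261 and -0.025 with the length trend removed with TGF-β1 in control cells, with leave-outs from -0.0113 to 0.116. For Tgfbr2 with Smad7 loss in unstimulated cells they were -0.00269 and -0.00163 with the length trend removed. The interaction of Tgfbr1 was 0.00618 in DESeq2, 0.00601 with its size factors, 0.104 and 0.102 with the length trend removed, and -0.312 to 0.215 in the leave-outs. The difference in the log2 ratio of Smad4 to Smad2 and Smad3 with TGF-β1 in Smad7-KO cells was 0.174 with counts in place of FPKM. With TPM in place of FPKM, the log2 ratio of condition means with Smad7 loss was 0.372 in place of 0.18 for Tgfb1 in unstimulated and 0.0842 in place of -0.01 for Smad4 in stimulated cells. The cause of these changes was not tested.

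Precision is limited by 3 libraries per condition and by the spread of the unstimulated control libraries. Counts were at least 213 for every member in every library.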
